A study of Homo sapiens with 4 samples.

Results

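The 8 genes described here encode the plasminogen activator and tissue factor system: PLAU, PLAT, PLAUR, SERPINE2, F3, TFPI, TFPI2 and THBD. They were chosen by these symbols among the 23228 genes of each count table, by a rule with no measured value in it, though with earlier results of these data known. All 8 symbols were in the tables, and 7 averaged 1 CPM or more in each comparison, where CPM is a gene's count scaled to equal library totals, while THBD had 0 counts throughout. RNA came from A673 cells, a permanent line of Ewing sarcoma with an EWS-FLI1 fusion, taken 48 h after lipid transfection of siRNA. The 4 groups hold 1 library each: siSMPD1 (siRNA against SMPD1, the gene of acid sphingomyelinase) with its scrambled siRNA control, control_SMPD1, and siGPR64 (siRNA against GPR64, an adhesion G protein-coupled receptor gene) with its own scrambled control, control_GPR64. All groups shared the same serum, insulin and beta-mercaptoethanol medium and the same transfection reagent, and no untransfected library was analysed here. Knockdown by siRNA lowers a transcript and does not delete the gene, and the siRNA sequences were not analysed here.

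Plasminogen activators are serine proteases that cut plasminogen into plasmin, which dissolves fibrin and degrades matrix proteins around cells. Urokinase acts mainly on the cell surface, held there by its receptor, whereas tissue-type plasminogen activator acts mainly on fibrin, and serpin inhibitors trap both enzymes. Tissue factor is the cell-surface receptor and cofactor of factor VIIa that starts coagulation, and Kunitz-type inhibitors hold this step in check. Tumour cells are known to use both branches, for invasion and for clotting at their surface.

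Gene counts summed to 18849264 in siSMPD1, 19614913 in control_SMPD1, 2534861 in siGPR64 and 2882854 in control_GPR64, so the GPR64 pair is far shallower and its values are less precise. Since no group has a second library, differences between a knockdown and its paired control lack a replicate check and come without p-values. A fit that takes both scrambled controls as a group of 2 was run as an alternative, and called none of the 8 genes after adjustment with edgeR's quasi-likelihood test or DESeq2. THBD, which had no counts, was not part of that fit. Levels and ratios carry 95% intervals for counting error alone. The rule of size used below asks for a ratio of at least 2-fold, a mean of at least 1 CPM and an interval that excludes 1. SMPD1 stood at 91.7 CPM in siSMPD1 and 414 CPM in control_SMPD1, and GPR64 at 50.1 CPM in siGPR64 and 109 CPM in control_GPR64, so each target was lower in the library of its siRNA than in the paired control. The 2 scrambled controls differed for both targets: control_GPR64 held 52.8 CPM of SMPD1, less than siSMPD1, and control_SMPD1 held 388 CPM of GPR64. SMPD1 was also 4.39-fold higher in siGPR64 than in control_GPR64 (3.68 to 5.28). For this reason ratios of the 8 genes are also given against the other control. Of 12 Ewing sarcoma markers 11 were at 1 CPM or more in every library and CD99 was listed at 0. PAX7 was lowest in control_GPR64 at 24.0 CPM, with 126 CPM in siGPR64, 190 CPM in siSMPD1 and 197 CPM in control_SMPD1. It was called higher in siGPR64 over control_GPR64, where the other 10 measured markers were not called, beside 6.59% of all measured genes called higher. The labelled tissue, muscle, was not seen in its markers: MYOD1, MYOG, MYF5 and MYF6 had 0 counts in all 4 libraries and MYH3 was the only one of 8 above 1 CPM.

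In the siGPR64 library both plasminogen activator genes and the tissue factor gene were higher than in control_GPR64. PLAU was 5.37-fold higher (95% counting interval 2.05 to 18.4), PLAT 5.27-fold (2.56 to 12.5) and F3 2.34-fold (1.34 to 4.22). PLAT was also higher in siGPR64 against control_SMPD1, at 4.89-fold (3.26 to 7.4). F3 was at 1.9-fold of control_SMPD1 (1.32 to 2.7), short of 2-fold, and PLAU at 0.869-fold (0.544 to 1.33). In bulk samples such as these, fewer cells of a type and less RNA per cell cannot be told apart. By the rule of size these 3 of 7 measured genes passed upward and none downward, where 6.59% of all 12830 measured genes passed it upward and 5.25% downward. The median log2 ratio of the 7 was 0.28, beside 0.01 over all measured genes. In the siSMPD1 library none of the 7 passed the rule in either direction, where 2.45% of 12749 genes were called higher and 1.08% lower, and the median log2 ratio was -0.09, beside 0.00 over all genes.

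PLAU encodes urokinase. It had 325 counts (17.2 CPM, interval 15.4 to 19.2) in siSMPD1, 208 counts (10.8 CPM, 9.4 to 12.4) in control_SMPD1, 24 counts (9.4 CPM, 6.02 to 14) in siGPR64 and 5 counts (1.71 CPM, 0.556 to 4.0) in control_GPR64. The control_GPR64 library stood apart at the low end, siSMPD1 at the high end, and the intervals of siGPR64 and control_SMPD1 overlapped. Against its paired control PLAU was 1.59-fold higher in siSMPD1 (1.33 to 1.9), short of 2-fold, and 5.37-fold higher in siGPR64. Against the other control it was 9.82-fold higher in siSMPD1 (4.26 to 31.2), past the rule, but at 0.869-fold in siGPR64 (0.544 to 1.33). PLAU was 6.18-fold lower in control_GPR64 than in control_SMPD1 (2.67 to 19.7), so the call of PLAU in siGPR64 rests on 5 reads in control_GPR64, and its direction turns with the control. C10orf55, which overlaps PLAU on the opposite strand, had 3 counts in siSMPD1 and 0 in the other 3 libraries. Whether counting used strand is not stated in the labels, so reads of such partners cannot be told apart.

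PLAT encodes tissue-type plasminogen activator. It had 81 counts (4.29 CPM, 3.41 to 5.33) in siSMPD1, 64 counts (3.33 CPM, 2.57 to 4.25) in control_SMPD1, 42 counts (16.5 CPM, 11.9 to 22.2) in siGPR64 and 9 counts (3.08 CPM, 1.41 to 5.85) in control_GPR64. The siGPR64 library lay above the other 3, whose intervals overlapped. PLAT in siGPR64 was 5.27-fold higher than in control_GPR64 and 4.89-fold higher than in control_SMPD1 (3.26 to 7.4). It was the only one of the 8 genes past the rule of size against both controls in siGPR64, where 1.49% of measured genes were called higher against both and 1.4% lower. In siSMPD1 none of the 8 passed against both, where 0.957% of measured genes were called higher and 0.588% lower. In siSMPD1 PLAT was at 1.28-fold of control_SMPD1 (0.917 to 1.82) and at 1.39-fold of control_GPR64 (0.698 to 3.15), and neither interval excluded 1.

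PLAUR encodes the urokinase receptor, a protein anchored to the membrane by a lipid tail. Its levels were 15.9 CPM in siSMPD1 (14.1 to 17.8), 17.5 CPM in control_SMPD1 (15.7 to 19.5), 20.4 CPM in siGPR64 (15.2 to 26.7) and 16.8 CPM in control_GPR64 (12.4 to 22.2). All 4 intervals overlapped. PLAUR was at 0.907-fold of the paired control for siSMPD1 (0.773 to 1.06), and for siGPR64 at 1.21-fold (0.806 to 1.83), so differences within these bounds cannot be seen at this depth. Between the controls PLAUR was at 0.957-fold (0.694 to 1.29), where the gene of its ligand PLAU differed 6.18-fold. RN7SL368P, which overlaps PLAUR on the same strand, is absent from the genes counted, so its reads cannot be told apart.

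SERPINE2 encodes protease nexin-1, a serpin that inhibits thrombin, urokinase and tissue-type plasminogen activator. It had 5604 counts (297 CPM) in siSMPD1, 6069 counts (316 CPM) in control_SMPD1, 1092 counts (428 CPM) in siGPR64 and 1437 counts (492 CPM) in control_GPR64. No 2 of these counting intervals overlapped, and both libraries of the GPR64 pair were above both of the SMPD1 pair. SERPINE2 was at 0.94-fold of the paired control for siSMPD1 (0.906 to 0.975), and for siGPR64 at 0.869-fold (0.803 to 0.941). The difference between the controls was larger than either, with control_GPR64 at 1.56-fold of control_SMPD1 (1.47 to 1.65). Against control_SMPD1 the siGPR64 library was 1.35-fold higher (1.27 to 1.44), so the direction turns with the control.

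F3 encodes tissue factor. It had 120 counts (6.36 CPM, 5.27 to 7.6) in siSMPD1, 162 counts (8.43 CPM, 7.18 to 9.84) in control_SMPD1, 41 counts (16.1 CPM, 11.5 to 21.8) in siGPR64 and 20 counts (6.85 CPM, 4.18 to 10.6) in control_GPR64. The siGPR64 level lay above the other 3, and the interval of control_GPR64 overlapped those of both SMPD1 libraries. Against control_SMPD1 F3 was 1.9-fold higher in siGPR64 (1.32 to 2.7), the same direction as against its paired control but short of 2-fold. In siSMPD1 it was 1.32-fold lower than in control_SMPD1 (1.04 to 1.69), also short of 2-fold, and at 0.929-fold of control_GPR64 (0.575 to 1.57).

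TFPI and TFPI2 encode Kunitz-type inhibitors: TFPI blocks factor Xa and the tissue factor complex with factor VIIa, and TFPI2, found mainly in the extracellular matrix, inhibits plasmin and trypsin. TFPI stood at 48.4 CPM in siSMPD1 (45.3 to 51.6), 68.2 CPM in control_SMPD1 (64.5 to 72.0), 30.2 CPM in siGPR64 (23.8 to 37.7) and 40.1 CPM in control_GPR64 (33.1 to 48.0). It was 1.41-fold lower in siSMPD1 than in its control (1.29 to 1.54) and 1.33-fold lower in siGPR64 (0.988 to 1.8), so both ratios point down, neither reaches 2-fold, and only the first interval excludes 1. Against control_SMPD1 the siGPR64 library was 2.26-fold lower for TFPI (1.8 to 2.88), past the rule of size, where 5.25% of measured genes were called lower in that comparison. Against control_GPR64 the siSMPD1 library had the opposite sign, at 1.21-fold (0.995 to 1.48). TFPI2 had 51 counts (2.7 CPM) in siSMPD1, 53 counts (2.76 CPM) in control_SMPD1, 11 counts (4.31 CPM) in siGPR64 and 19 counts (6.51 CPM) in control_GPR64. TFPI2 was at 0.98-fold of the paired control for siSMPD1 (0.654 to 1.47), and for siGPR64 at 0.664-fold (0.285 to 1.46), and neither interval excluded 1. Against the other control TFPI2 was 2.38-fold lower in siSMPD1 (1.34 to 4.15) and at 1.55-fold in siGPR64 (0.736 to 3.03), so for siGPR64 the direction turns with the control. TFPI2 was 2.34-fold higher in control_GPR64 than in control_SMPD1 (1.32 to 4.05). GNGT1, which overlaps TFPI2 on the opposite strand, had 0 counts in all 4 libraries. The antisense genes AC007319.1, over TFPI, and AC002076.1, over TFPI2, are absent from the genes counted.

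THBD encodes thrombomodulin, the thrombin receptor that turns thrombin towards activation of protein C. It had 0 counts in all 4 libraries, which allows up to 0.159 CPM in siSMPD1, 0.156 CPM in control_SMPD1, 1.18 CPM in siGPR64 and 1.03 CPM in control_GPR64 (3 counts per library). In all, 25.8% of the genes in the tables had 0 counts in all 4 libraries.

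**Figure D1:**
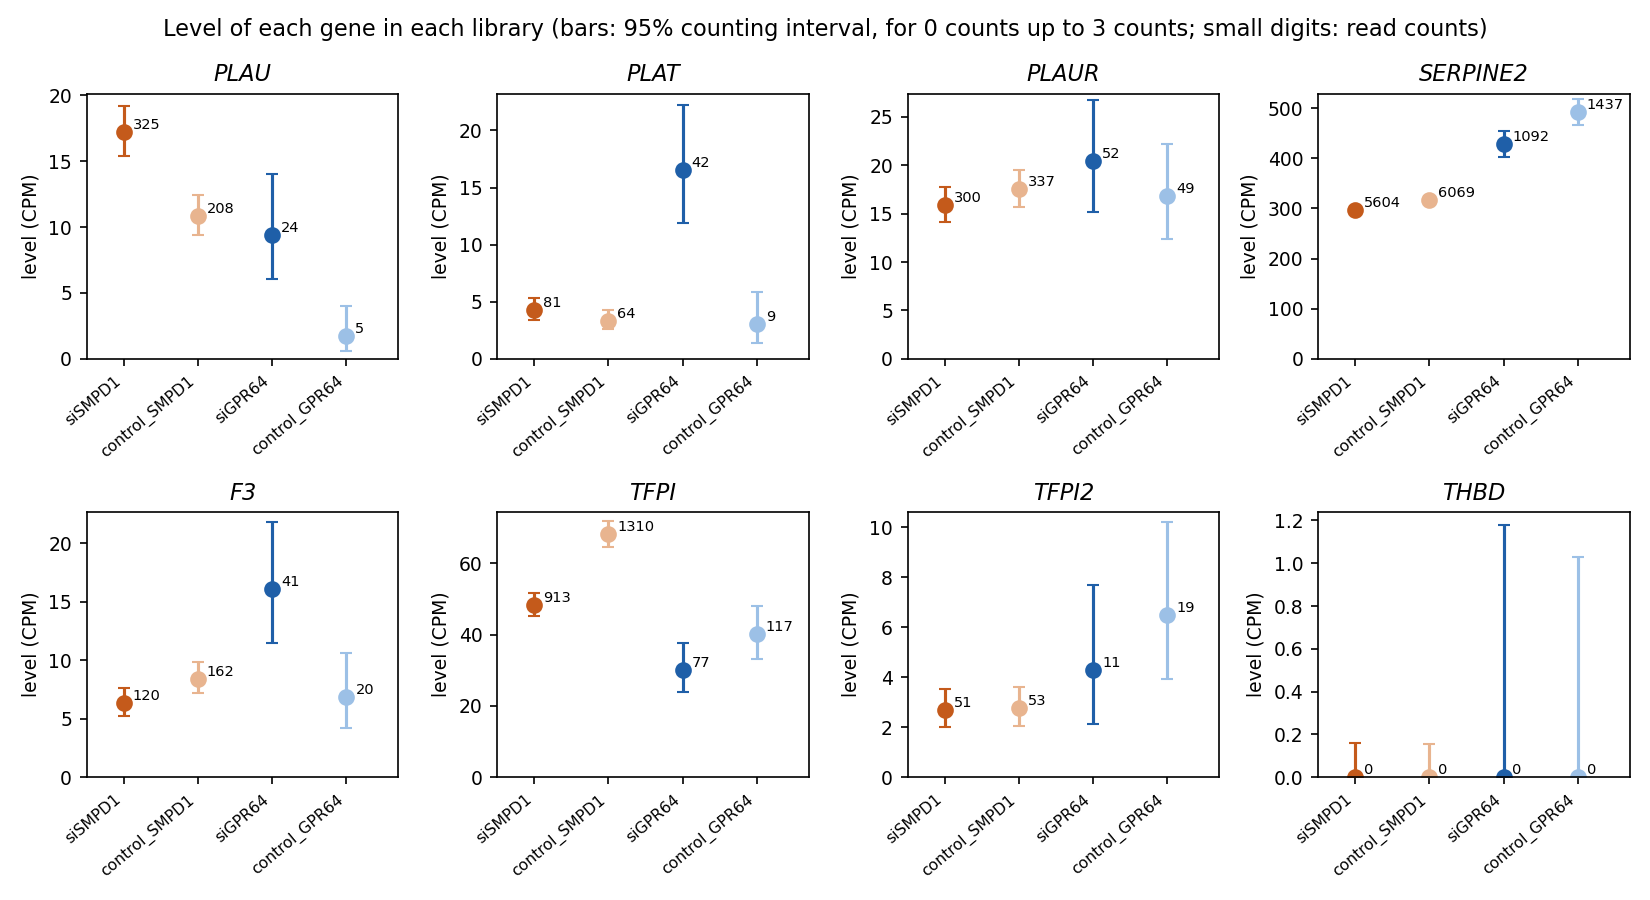
Level of each of the 8 genes (CPM, linear axis from 0) in the 4 libraries, with the 95% counting interval as a bar (for 0 counts, up to 3 counts) and the read count beside each point. PLAT at 16.5 CPM and F3 at 16.1 CPM are highest in siGPR64, PLAU is lowest in control_GPR64 at 1.71 CPM, and THBD has 0 counts throughout.

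Between the 2 scrambled controls, which carry the same treatment label, 2 of the 7 measured genes passed the rule of size. PLAU was lower in control_GPR64 than in control_SMPD1 and TFPI2 higher, where 8.33% of 12798 genes were called lower and 7.02% higher. The difference of PLAU between controls, 6.18-fold, was as large as its difference between siGPR64 and control_GPR64, 5.37-fold. Both of these ratios rest on the same 5 reads in control_GPR64, so they are not separate measures. Of the 3 genes called higher in siGPR64, PLAT at 0.926-fold (0.405 to 1.87) and F3 at 0.814-fold (0.483 to 1.3) had intervals between the controls that included 1. In siSMPD1 over control_GPR64, PLAU was called higher and TFPI2 lower, where 10.5% of 12887 genes were called higher and 8.02% lower. In siGPR64 over control_SMPD1, PLAT was called higher and TFPI lower, where 6.18% of 12812 genes were called higher and 5.25% lower. The comparisons of a knockdown with each control share the knockdown library, so they are not independent of each other.

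**Figure D2:**
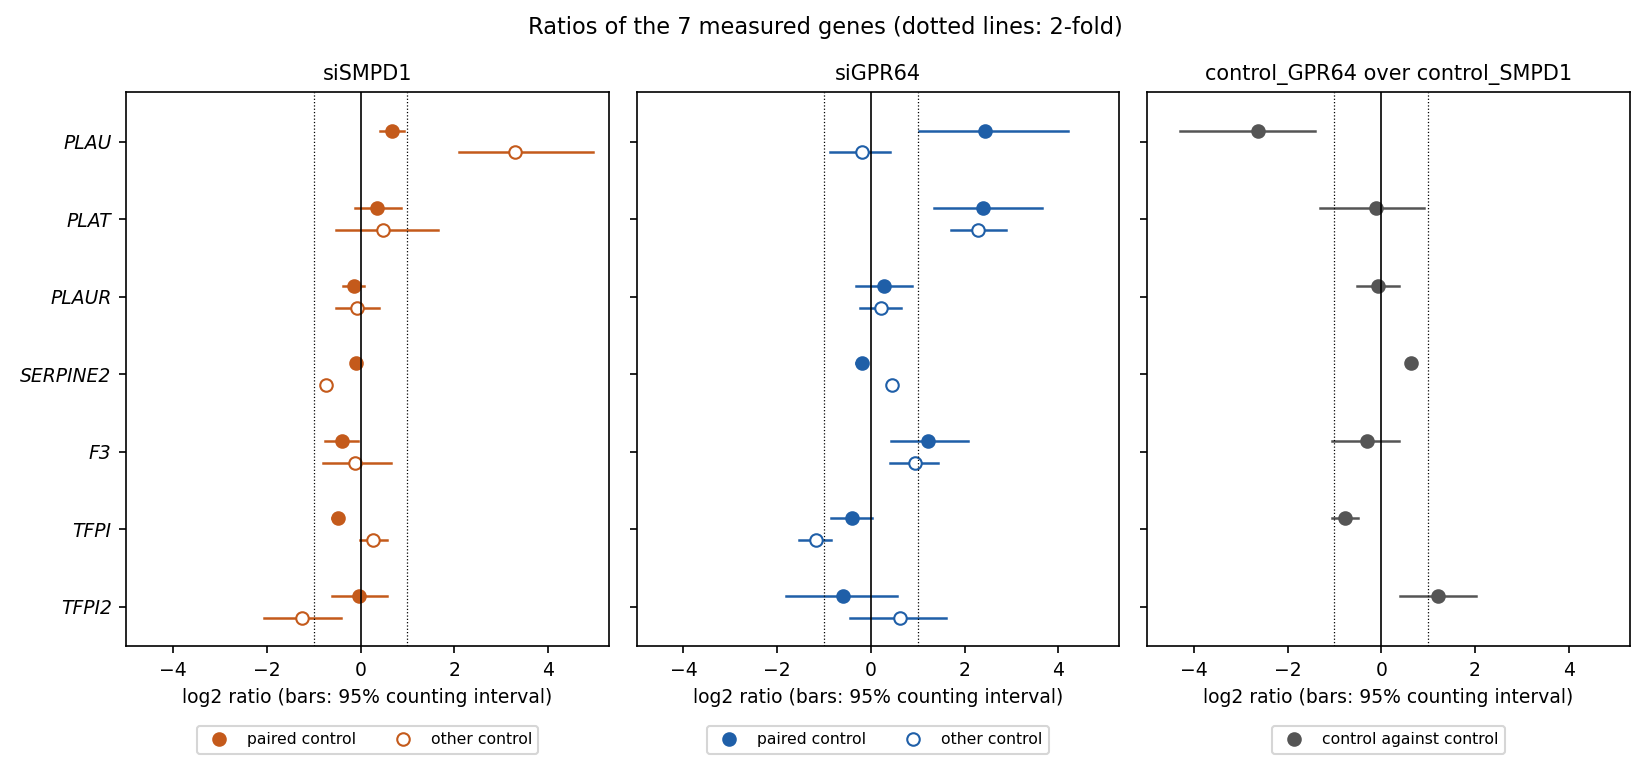
Log2 ratios of the 7 measured genes with 95% counting intervals: each knockdown over its paired control (filled) and over the other control (open), and control_GPR64 over control_SMPD1 in the right panel. PLAT in siGPR64 is beyond 2-fold against both controls (2.40 and 2.29), while PLAU is at 2.43 against the paired control and -0.20 against the other.

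Per kilobase of exon sequence, SERPINE2 had the highest level of the 8 genes in each library, at 136 CPM per kb in siGPR64 and 156 CPM per kb in control_GPR64. Next in siGPR64 came PLAUR at 9.26 CPM per kb, TFPI at 7.23, F3 at 7.02, PLAT at 5.97, PLAU at 3.5 and TFPI2 at 1.75. In control_GPR64 the same genes were at 7.63 CPM per kb for PLAUR, 9.6 for TFPI, 3.0 for F3, 1.12 for PLAT, 0.637 for PLAU and 2.64 for TFPI2. By level per kb PLAU and PLAT, the enzymes, stood above TFPI2 in siGPR64 and below it in control_GPR64. They were above it in both SMPD1 libraries too, where TFPI2 was at 1.1 CPM per kb in siSMPD1 and 1.12 in control_SMPD1. Only control_GPR64 had the other order, and there PLAU, PLAT and TFPI2 rest on 5, 9 and 19 reads. In the SMPD1 pair PLAU was at 6.41 CPM per kb in siSMPD1 and 4.03 in control_SMPD1, PLAT at 1.56 and 1.21, F3 at 2.78 and 3.69, and TFPI at 11.6 and 16.3, in the same order of libraries. Lengths are those of all annotated exons joined, from GENCODE 29, which may differ from the annotation the submitters counted on.

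Among all measured genes, 1.36% had a ratio in siGPR64 over control_GPR64 as high as PLAU, 1.4% as high as PLAT and 6.42% as high as F3. In siSMPD1 over control_SMPD1, 6.2% had a ratio as high as PLAU, and 7.26% had one as low as TFPI.

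**Figure D3:**
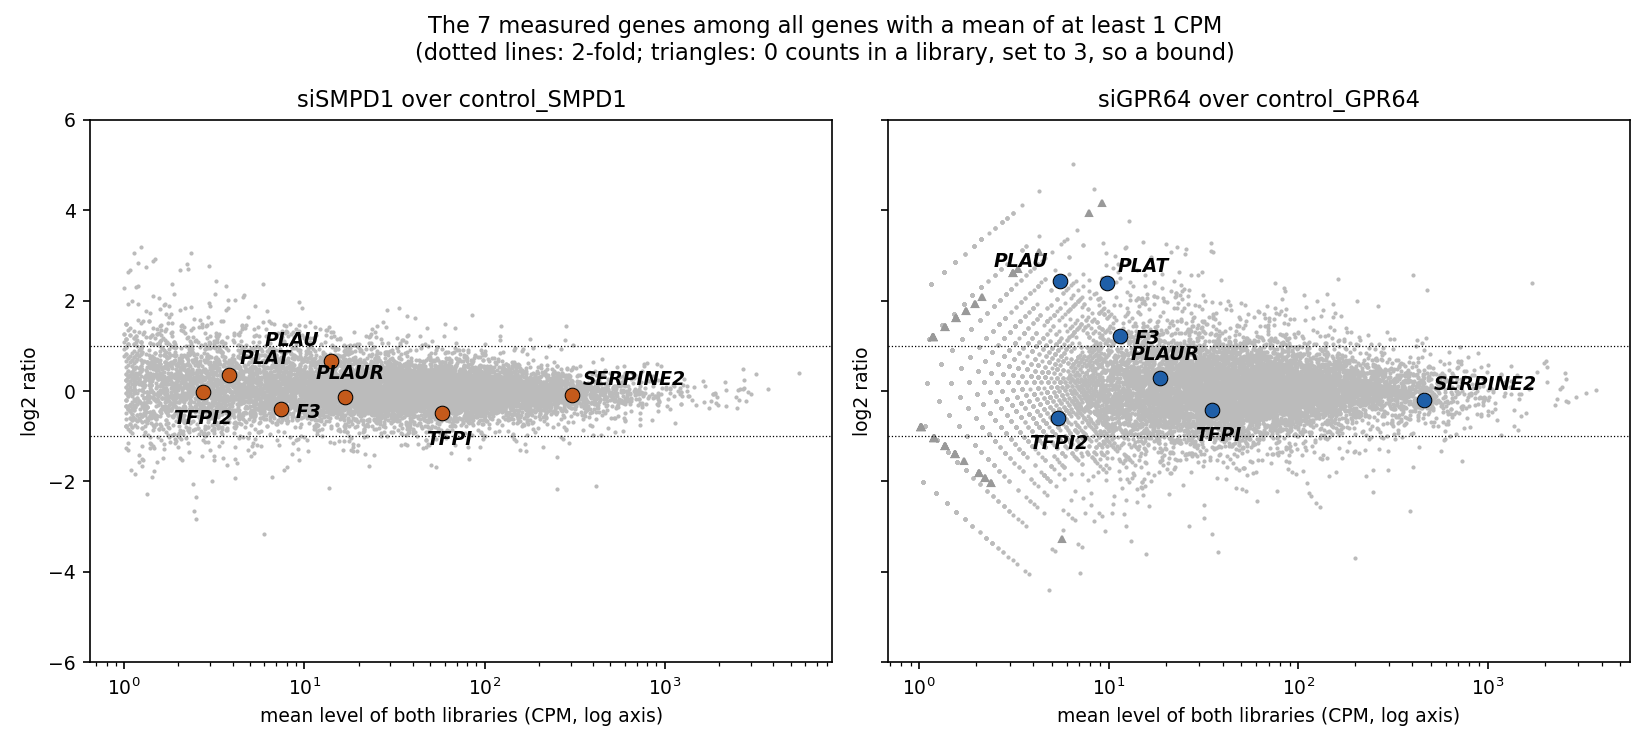
Log2 ratio against mean level (CPM, log axis) for all genes that average 1 CPM or more, with the 7 measured genes named; triangles mark genes with 0 counts in a library, set to 3 counts. In siGPR64 over control_GPR64 the points PLAU, PLAT and F3 lie above the 2-fold line, and in siSMPD1 over control_SMPD1 all 7 lie within it.

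Promoter windows are shown for F3 and PLAU, which passed the rule upward in siGPR64 over control_GPR64. Against control_SMPD1, PLAU in siGPR64 was at 0.869-fold (0.544 to 1.33) and F3 at 1.9-fold (1.32 to 2.7). Windows are also shown for PLAUR and TFPI, which did not pass the rule in either pair. The RefSeq table at hand (GRCh38.p14) holds windows of 250 bases before to 50 after the start for 6 of the 8 genes, with 8 windows in all. Capitals mark matches, on either strand, to 5 motifs. The AP-1 motif, bound by FOS and JUN dimers, was TGANTCA. The composite element bound by ATF4 was TGATGNAA. The EGR1 motif was GCGNGGGCG. The SP1 motif was GGGCGG, and can overlap that of EGR1. The TATA box was TATAAA. The F3 window is chr1:94541710-94542009 on the minus strand, the PLAU window, of the second of 2 starts, chr10:73910882-73911181 on the plus strand, the PLAUR window chr19:43670120-43670419 on the minus strand and the TFPI window chr2:187554386-187554685 on the minus strand, each written 5′ to 3′ along the gene.
F3: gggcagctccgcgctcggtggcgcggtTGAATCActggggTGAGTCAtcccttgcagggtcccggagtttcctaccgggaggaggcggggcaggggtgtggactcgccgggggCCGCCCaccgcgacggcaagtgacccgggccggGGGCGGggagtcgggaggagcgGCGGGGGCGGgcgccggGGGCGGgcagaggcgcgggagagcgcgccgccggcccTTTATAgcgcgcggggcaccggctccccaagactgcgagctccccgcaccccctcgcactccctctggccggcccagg
PLAU: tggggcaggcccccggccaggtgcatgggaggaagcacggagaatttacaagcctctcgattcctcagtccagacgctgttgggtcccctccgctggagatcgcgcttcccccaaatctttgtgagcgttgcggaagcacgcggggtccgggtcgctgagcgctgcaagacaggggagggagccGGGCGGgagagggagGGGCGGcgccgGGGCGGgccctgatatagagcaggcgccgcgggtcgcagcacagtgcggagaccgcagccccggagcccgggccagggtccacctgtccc
PLAUR: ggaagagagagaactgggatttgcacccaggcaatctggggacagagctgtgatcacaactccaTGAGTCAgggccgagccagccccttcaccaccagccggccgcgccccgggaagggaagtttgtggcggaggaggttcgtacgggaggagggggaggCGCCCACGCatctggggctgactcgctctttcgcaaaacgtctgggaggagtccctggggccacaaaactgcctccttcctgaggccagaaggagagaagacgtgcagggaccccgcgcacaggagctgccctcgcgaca
TFPI: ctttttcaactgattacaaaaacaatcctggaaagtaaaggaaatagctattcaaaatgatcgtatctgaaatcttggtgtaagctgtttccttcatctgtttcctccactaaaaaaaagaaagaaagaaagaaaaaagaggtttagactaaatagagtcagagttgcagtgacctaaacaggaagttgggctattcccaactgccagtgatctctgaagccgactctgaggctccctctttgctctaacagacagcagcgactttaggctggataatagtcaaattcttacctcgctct

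The F3 window holds 2 AP-1 matches, TGAATCA and TGAGTCA, whose first bases lie 223 and 210 bases before the start, and a TATA match on the reverse strand 28 bases before it. It also holds 4 SP1 matches and 1 EGR1 match that overlaps one of them. The PLAU window shown has 3 SP1 matches and no AP-1 match, and its other window has no match to any of the 5 motifs. PLAUR has 1 AP-1 match, 186 bases before its start, and 1 EGR1 match, and the TFPI window has none of the 5. TFPI2, not shown, has 1 AP-1 match, 87 bases before its start, 1 EGR1 match and 2 SP1 matches. In all, 3 of the 8 windows held an AP-1 match, 3 an EGR1 match, 5 an SP1 match, 1 a TATA match and 0 an ATF4 match. An AP-1 match occurs in 7.71% of all 35116 windows in the table, an EGR1 match in 9.43%, an SP1 match in 45%, a TATA match in 11.5% and an ATF4 match in 3.62%.

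Other genes of plasminogen activation were read from a list of 24. In siGPR64 over control_GPR64, 15 were measured, of which 2 passed upward and 2 downward, beside 6.59% and 5.25% of all measured genes, with a median log2 ratio of 0.09. Against control_SMPD1, 14 were measured in siGPR64, with 0 called higher and 3 lower, beside 6.18% and 5.25% of all measured genes. Their median was -0.06. S100A10, which with annexin A2 forms a plasminogen-binding complex on the cell surface, had 57 counts (22.3 CPM) in siGPR64 and 9 counts (3.08 CPM) in control_GPR64, 7.15-fold higher (3.56 to 16.6). As for PLAU, control_GPR64 was the lowest of the 4 libraries. The control_SMPD1 library held 45.2 CPM of S100A10, and siGPR64 was 2.02-fold lower than that library (1.55 to 2.69), so the direction turns with the control. ITGB5, an integrin subunit of a vitronectin receptor, was 3.12-fold higher (2.67 to 3.67) and at 1.31-fold of control_SMPD1 (1.2 to 1.43). CPB2, the carboxypeptidase that slows fibrin breakdown by plasmin, had 3 counts in siGPR64 and 30 in control_GPR64, 8.45-fold lower (2.72 to 44.8), and was also lower against control_SMPD1, 3.58-fold (1.22 to 18.2). A2M, a broad protease inhibitor, had 0 counts in siGPR64 and 7 in control_GPR64. This is 2.04-fold lower with the 0 set to 3, and the counting interval starts at 1.26-fold lower. A2M reached a mean of 1 CPM only through control_GPR64, at 2.4 CPM, so the filter set in part its place among the called genes. In siGPR64 it was not called against control_SMPD1, which held 0.573 CPM. Between the controls A2M was 3.95-fold higher in control_GPR64 (1.38 to 11.8). In siSMPD1 none of the 14 measured genes of the list passed, beside 2.45% of all measured genes called higher and 1.08% lower. Their median was 0.04, and SERPINB8, a serpin gene, was at 1.86-fold lower (1.58 to 2.2). PLG, the gene of plasminogen itself, had 0 counts in all 4 libraries.

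Of 27 other coagulation genes, 9 were measured in the GPR64 pair and 2 were higher in siGPR64, with none lower. Of all measured genes 6.59% were called higher and 5.25% lower, and the median log2 ratio of the 9 was 0.51. Against control_SMPD1, 2 were likewise higher and none lower, beside 6.18% and 5.25% of all measured genes, and the median was 0.06. PROCR, the endothelial protein C receptor, works next to thrombomodulin in the activation of protein C. It had 82 counts (4.35 CPM) in siSMPD1, 92 counts (4.79 CPM) in control_SMPD1, 47 counts (18.4 CPM) in siGPR64 and 10 counts (3.43 CPM) in control_GPR64. PROCR in siGPR64 was 5.32-fold higher than in control_GPR64 (2.68 to 11.9) and 3.82-fold higher than in control_SMPD1 (2.65 to 5.52), and like F3 it was highest in siGPR64. GAS6, a vitamin K-dependent ligand of receptor tyrosine kinases, had 6 counts in siGPR64 and 0 in control_GPR64. This is 2.29-fold higher with the 0 set to 3, and the counting interval starts at 1.35-fold. GAS6 reached a mean of 1 CPM only through siGPR64, at 2.35 CPM, and stood at 0.468 CPM in control_SMPD1. The filter therefore set in part its place among the called genes. None of 8 measured genes passed in siSMPD1, beside 2.45% of all measured genes called higher and 1.08% lower, and the median was -0.09. LMAN1, part of the cargo receptor for factors V and VIII, was 1.6-fold lower (1.54 to 1.66) and PROS1, the gene of protein S, at 1.42-fold (1.26 to 1.62). The genes of factor X, factor V, factor IX and the fibrinogen chains FGA and FGB had 0 counts in all 4 libraries.

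Of the 4 protease-activated receptors, through which thrombin and related proteases signal, F2R, the main thrombin receptor, had 4862 counts in siSMPD1, 4571 in control_SMPD1, 621 in siGPR64 and 553 in control_GPR64. Its ratio to the paired control was 1.08-fold for siSMPD1 (1.04 to 1.13), and for siGPR64 1.28-fold (1.14 to 1.44), with neither past the rule. Of the 2 receptors measured in the GPR64 pair 1 was higher in siGPR64, beside 6.59% of all measured genes. Against control_SMPD1, 0 of 3 were higher and 1 lower, beside 6.18% and 5.25% of all measured genes. The receptor called lower rests on 2 reads in siGPR64. F2RL2 was at 54.1 CPM in siGPR64 and 17.1 CPM in control_GPR64, 3.15-fold higher (2.27 to 4.45), and at 1.66-fold of control_SMPD1 (1.37 to 2.0). In siSMPD1 F2RL2 was at 0.827-fold of its control (0.734 to 0.932).

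Transcription factors known to act on promoters of these genes were mixed. Of 19 measured in the GPR64 pair, 3 were higher in siGPR64 and 2 lower, beside 6.59% and 5.25% of all measured genes, with a median log2 ratio of -0.13. Against control_SMPD1, 2 were higher and 0 lower, beside 6.18% and 5.25% of all measured genes, and the median had the other sign, 0.37. FOSL1 and FOSL2, AP-1 subunits, were 3.67-fold (2.14 to 6.65) and 2.99-fold (1.46 to 6.69) higher, at 22.7 and 11.4 CPM in siGPR64 against 6.17 and 3.77 CPM in control_GPR64. Against control_SMPD1 these ratios were 1.89-fold for FOSL1 (1.4 to 2.54) and 1.29-fold for FOSL2 (0.839 to 1.92). KLF2, a factor known to raise THBD in endothelium, had 28 counts in siGPR64 and 3 in control_GPR64, 10.3-fold higher (3.3 to 54.9), and was 4.71-fold higher against control_SMPD1 (2.87 to 7.87). EGR1, a growth-induced factor, was 4.69-fold lower (4.07 to 5.44) and NFKB1 2.1-fold lower (1.56 to 2.86). Against control_SMPD1 both had the opposite direction but fell short of 2-fold, at 1.87-fold (1.61 to 2.17) and 1.89-fold (1.41 to 2.49). In siSMPD1, 2 of 19 were lower and none higher, beside 1.08% and 2.45% of all measured genes, with a median of -0.08. Against control_GPR64, 10 of 18 were lower in siSMPD1 and 1 higher, beside 8.02% and 10.5% of all measured genes, with a median of -1.06. Between the controls, 7 of 18 were higher in control_GPR64 than in control_SMPD1 and 1 lower, with a median of 0.42. Of all measured genes 7.02% were called higher and 8.33% lower between the controls. The 2 called in siSMPD1 against control_SMPD1 were FOS at 2.41-fold lower (1.92 to 3.09) and ETV4, an Ets factor, at 2.23-fold lower (1.87 to 2.7). Median log2 ratios over all genes were 0.00 in the SMPD1 pair and 0.01 in the GPR64 pair.

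**Figure D4:**
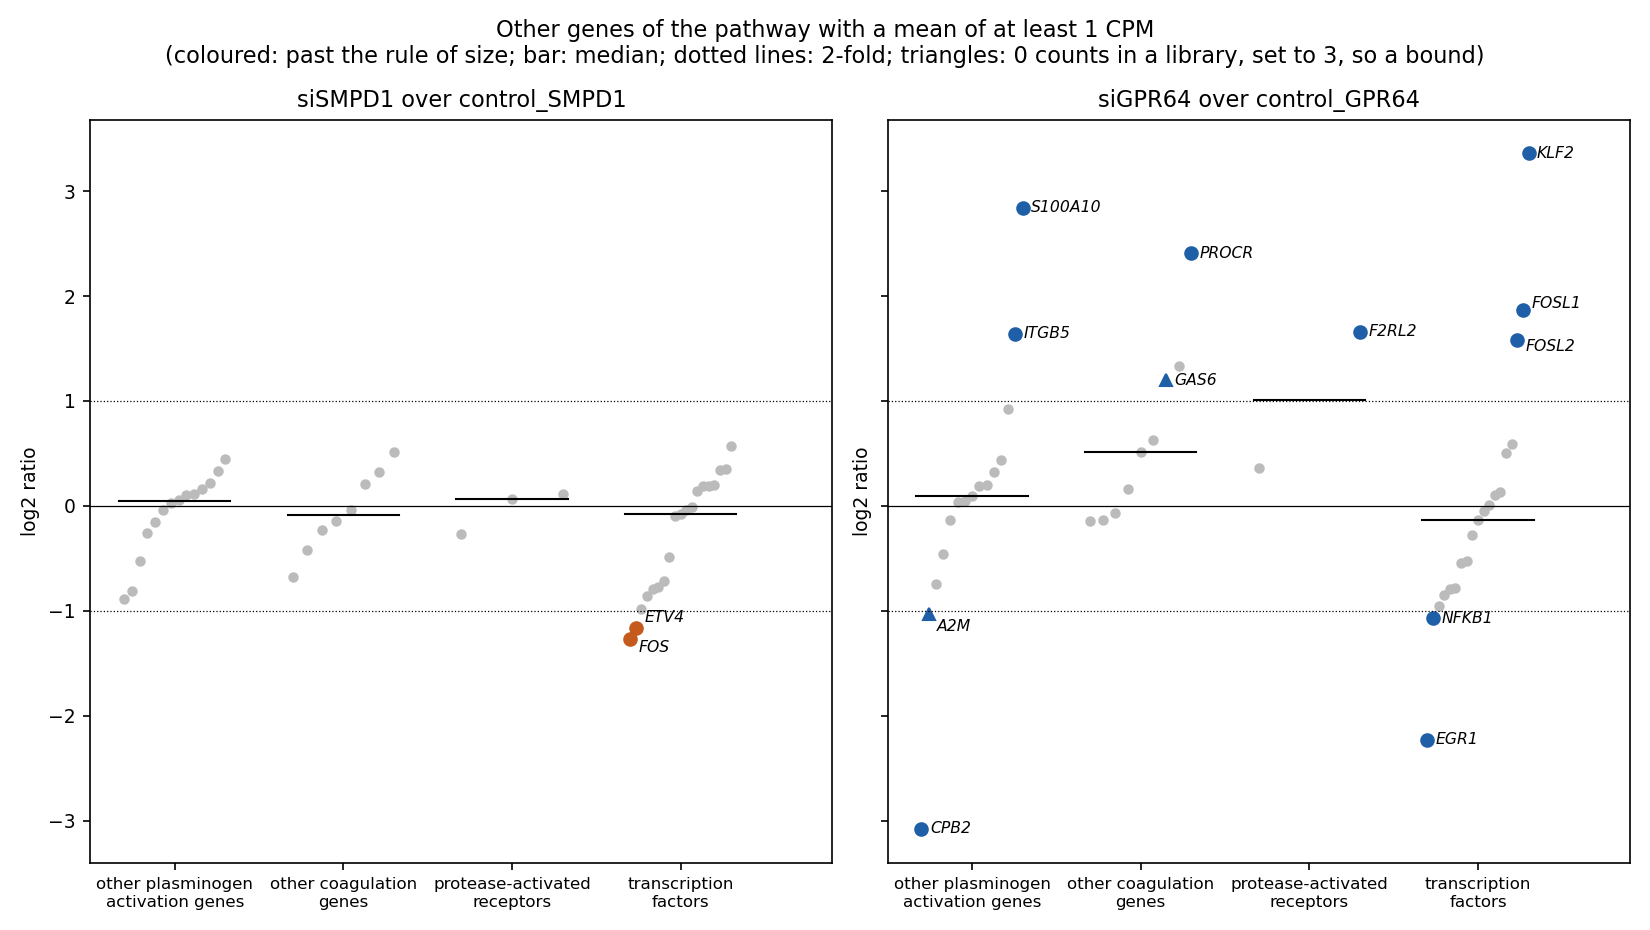
Log2 ratios of the measured genes of the 4 lists in each pair, with genes past the rule of size coloured and named, bars at the medians, and triangles for genes with 0 counts in a library, set to 3 counts. In siGPR64 over control_GPR64 S100A10, ITGB5, PROCR, GAS6, F2RL2, KLF2, FOSL1 and FOSL2 are above 2-fold, and in siSMPD1 over control_SMPD1 only FOS and ETV4 pass.

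The genes whose pattern over the 4 libraries was most like each called gene were sought among 8351 genes that average 20 CPM or more. Likeness was the distance between log2 levels, each centred on its own mean. F3 lay closest to HS6ST1, a heparan sulphate sulphotransferase gene, at a distance of 0.09, and to NEU1, a lysosomal sialidase gene, at 0.16. HS6ST1 stood at 40.3 CPM in siSMPD1, 49.3 CPM in control_SMPD1, 97.9 CPM in siGPR64 and 40.8 CPM in control_GPR64. PLAU lay closest to CPT1A, a mitochondrial fatty acid import gene, at 0.25, and to PDPN, which encodes podoplanin, at 0.3. CPT1A stood at 85.6 CPM in siSMPD1, 65.0 CPM in control_SMPD1, 53.7 CPM in siGPR64 and 8.56 CPM in control_GPR64, so it too was lowest in control_GPR64. PLAT lay closest to FJX1, at 0.65, and to RHOB, a small GTPase gene, at 0.74, which are larger distances. RHOB stood at 135 CPM in siGPR64 and 44.9 CPM in control_GPR64, with 63.4 CPM in siSMPD1 and 51.9 CPM in control_SMPD1. With 4 libraries, such distances are a description only.

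Markers of other cell types were read beside these results. Of 7 endothelial markers 1 or 2 were over 1 CPM, and they summed to 10.2 CPM in siGPR64, 24.3 CPM in control_GPR64, 2.23 CPM in siSMPD1 and 3.07 CPM in control_SMPD1, mostly EMCN, which was at 7.83 CPM in siGPR64 and 23.6 CPM in control_GPR64, while TEK, TIE1 and ERG had 0 counts in every library. None of 6 monocyte and macrophage markers and none of 6 epithelial markers reached 1 CPM in any library, with sums of 0.343 to 0.848 CPM and 0.343 to 1.18 CPM. The 4 platelet markers summed to 0.312 to 1.37 CPM, with PF4, PPBP and GP9 at 0. Of 6 fibroblast markers 3 or 4 were over 1 CPM. They summed to 144 CPM in siGPR64, 121 CPM in control_GPR64, 137 CPM in siSMPD1 and 100 CPM in control_SMPD1. Of 4 measured, 1 was called higher in siGPR64 than in control_GPR64 and 1 lower, beside 6.59% and 5.25% of all measured genes. DCN, at 0.783 CPM in siGPR64 and 4.11 CPM in control_GPR64, reached a mean of 1 CPM only through control_GPR64. The filter therefore set in part its place among the called genes. COL1A1 was at 75.2 CPM in siGPR64 and 34.3 CPM in control_GPR64. In the same order of libraries, COL3A1 was at 11.8 and 6.17 CPM and PDGFRB at 55.6 and 76.0 CPM. The part of these markers in the differences of PLAU, PLAT and F3 was not tested.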

How the data were processed

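Libraries were made from total RNA after ribosomal RNA removal and read from both ends, per the labels' protocols. TopHat2, SAMtools, HTSeq and bcl2fastq are named in the submitters' processing notes without versions, with hg19 as build. No source used here gives the annotation, strand setting or counting mode. Each library has 1 deposited file of raw read counts by gene symbol, which the authors did not normalize. Their HTSeq summary lines, which name no gene, held 44.1% of entries in siSMPD1, 44.8% in control_SMPD1, 36.5% in siGPR64 and 37.6% in control_GPR64 and were left out. Entries not uniquely aligned, absent from gene counts, made up 29.1%, 30.1%, 20.1% and 21.4% in that order.

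Counts were scaled with TMM factors (edgeR 4.0.16, R 4.3.3) over 13664 genes with at least 1 CPM in a library. Ratios had 0.5 count added, weighted by library total, with exact Clopper-Pearson intervals, and levels had exact Poisson intervals, both at 95%. Reads without molecular identifiers are not independent molecules, so intervals and the floor of 3 counts cover counting error only. The title of 1 control names GPR64 and that of the other shares the time tag of siSMPD1, which sets the pairs; whether pairs were cultured or sequenced together is not given. No pair has replicates, so the rule of size was used for the pairs. As alternatives, other scalings, priors, thresholds, filters and controls were tried, and DESeq2 1.42.0 and the quasi-likelihood test of edgeR were run with both controls as a group of 2.

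The members, lists and motifs were chosen with earlier results of these data known. Genes named are the 8 members, the targets, up to 6 members of each list past the rule per pair (otherwise the 2 furthest from 0), the 2 genes most like each called member, and markers. One gene that the rule names is not reported here. Other list genes named for 0 counts were chosen after their values were seen. Promoters are from RefSeq, build GRCh38.p14, and are not on the files' build. All 8 symbols matched a RefSeq symbol, and 1 listed symbol (PLGRKT) was matched through a synonym.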

Additional observations from a re-analysis of the deposited data

Results flagged for a closer look

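F3 had intervals that excluded 1 on opposite sides in the 2 pairs. Its log2 ratio was 1.22 in siGPR64 over control_GPR64 and -0.40 in siSMPD1 over control_SMPD1. The difference between the pairs was not tested, since each rests on 1 library per group, and the siSMPD1 ratio lay within 2-fold. Against the other control, F3 was at 1.9-fold in siGPR64 and at 0.929-fold in siSMPD1, the second with an interval that included 1.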

How the results depend on the processing

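Under DESeq2 size factors, total counts, TMM over all genes and a prior of 2 counts, all 84 recomputed log2 ratios of the measured members stayed inside their counting intervals. The choice of control mattered more. With the other control, 7 of 14 member log2 ratios left their counting intervals, and PLAU in siGPR64, a called gene, reversed to -0.20. Ratios of genes not called changed sign too. SERPINE2 in siGPR64 went from -0.20 to 0.44, TFPI2 in siGPR64 from -0.59 to 0.63 and TFPI in siSMPD1 from -0.49 to 0.27. The members called were 1 higher and 1 lower in siSMPD1 (against 0 and 0) and 1 higher and 1 lower in siGPR64 (against 3 and 0). With the mean of both controls, 5 of 14 member log2 ratios left their counting intervals, and 1 member was higher in siSMPD1. At 1.5-fold, 1 member was higher in siSMPD1, and 2 higher and 2 lower between the controls (against 1 and 1). At 3-fold, or with at least 5 CPM, 0 were higher between the controls. For all genes in siSMPD1, 312 higher and 138 lower calls became 1356 and 1034 with the other control, 652 and 390 with the mean control, 920 and 609 at 1.5-fold, 59 and 24 at 3-fold, and 121 and 75 at 5 CPM; without a CPM filter 225 were lower. In siGPR64, 846 and 674 became 1699 and 1459 at 1.5-fold and 420 and 263 at 3-fold, and 367 were lower with the mean control. Between the controls, 899 and 1066 became 1864 and 2121 at 1.5-fold and 471 and 513 at 3-fold, and 555 were higher at 5 CPM. The causes were not tested, beyond what each threshold or filter sets by construction.

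With both controls as a group of 2 (1 residual degree of freedom), edgeR's quasi-likelihood test called 0 genes in siSMPD1 and 0 in siGPR64 at an adjusted p under 0.05, where the rule of size had 450 and 1520. At an unadjusted p under 0.05 it had 179 and 313. DESeq2 called 1 and 0, with 179 and 211 unadjusted. PLAT in siGPR64 was the only member under 0.05 unadjusted, with edgeR at 0.0118 and DESeq2 at 0.0292 and an adjusted p of 1.0 from both tools. No paired analysis was possible because each group has 1 library. Depth limits the GPR64 pair: PLAU, PLAT and TFPI2 rest on 5, 9 and 19 reads in control_GPR64.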
